A study of Mus musculus with 12 samples.

Results

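The aldehyde dehydrogenase genes Aldh1a1, Aldh1a7, Aldh3a1, Aldh3a2, Aldh2, Aldh7a1 and Aldh9a1 were followed in mouse lung cancer cells exposed to electrophilic drugs. The 7 genes were found by their symbols in the array annotation, and every probe with 1 of those symbols was taken, which gave 10 of the 45281 probes on the array. The array named 30561 genes in all. Of the 10 member probes, 6 for 5 genes were detected often enough to be tested, among 19211 tested probes in all. The cells were VC1, a lung adenocarcinoma line from a female A/J mouse, and 1 line is all that was used. Illumina bead arrays, 12 in all, measured their RNA after 6 h with 0.05 µM CDDO-Im, 0.1 µM CDDO-Me, 15 µM DMF or DMSO, the vehicle, on 3 arrays each. The first compounds are derivatives of one synthetic triterpenoid acid, CDDO, as its imidazolide (CDDO-Im) and its methyl ester (CDDO-Me), and DMF is dimethyl fumarate. The series title names them as activators of NRF2, a transcription factor of the response to electrophiles. The design text puts CDDO-Im beside 0.1 µM where titles and treatment protocol have CDDO-Me, and the titles were followed. Whether replicates were separate cultures is not said in the labels, so the p-values measure the spread between these samples, which may be technical.

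Aldehyde dehydrogenases oxidize aldehydes to carboxylic acids with NAD or NADP as the electron acceptor. They clear reactive aldehydes that arise when lipids are oxidized, and some of them make signalling acids such as retinoic acid. Several members have been described as NRF2 target genes in mouse tissues, and a high aldehyde dehydrogenase activity is a widely used marker in lung cancer cell research.

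Signals are given as normalized log2 signal, on which a difference of 1 is a doubling, and as signals of 1 probe only, since probes of different genes differ in brightness for the same amount of RNA. A probe was called when its adjusted p in limma was under 0.05. Of 10 lung epithelial markers, 5 (Nkx2-1, Cdh1, Krt8, Krt18 and Krt19) were detected on all 12 arrays, while Sftpc, Sftpd and Epcam were detected on none. Of 5 leukocyte markers, Ptprc and 3 others were detected on no array and Cd68 on 11. Of 4 endothelial markers, Pecam1 was detected on no array and Kdr on 11, and of 6 fibroblast markers, Col3a1 and Dcn were detected on none, Col1a2 on 4 and Pdgfra on 7. DMSO replicate 1 and CDDO-Im replicate 2 stood apart from the other 10 arrays. Their median correlations with the remaining arrays were 0.903 for DMSO replicate 1 and 0.918 for CDDO-Im replicate 2, where the other 10 had medians of 0.988 to 0.994. Both lay on the first of 2 BeadChips, each of which held all 4 groups. Results are therefore given with 12 arrays and again with the 10 others. The number of arrays limits the precision, and in bulk RNA fewer cells with a transcript and less transcript per cell cannot be told apart.

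Aldh1a1, Aldh1a7 and Aldh3a1 rose with both triterpenoids, and Aldh3a1 rose with DMF. No member was called lower, where 0.323% of all tested probes were lower with CDDO-Im, 0.307% with CDDO-Me and 0.00521% with DMF. The counts here are over the 5 member probes detected on all 12 arrays, since Aldh1a7 passed the detection filter only through treated arrays. The shares set beside them are over all tested probes, which needed detection on only 3 arrays, so the 2 sets are unlike. The members were also chosen with earlier results of these data known, so the shares are a description and no test of enrichment. With CDDO-Im, 2 of those 5 were called higher, against 1.12% of all tested probes. With CDDO-Me the count was 2 of 5, against a background of 0.765%, and with DMF it was 1 of 5, against 0.291%. On the 10 arrays the counts were 3 of 5 for CDDO-Im (background 5.01%), 4 of 5 for CDDO-Me (4.89%) and 4 of 5 for DMF (3.43%). Every treated array lay above every DMSO array for 4 of the 5 with CDDO-Im, against 7.49% of tested probes. The same held for 5 of 5 with CDDO-Me, against 11.6%, and for 5 of 5 with DMF, against 11.1%. The median log2 difference of the 5 was 0.66 with CDDO-Im, 0.82 with CDDO-Me and 0.84 with DMF, while over all tested probes it was 0.02 with CDDO-Im, -0.01 with CDDO-Me and -0.02 with DMF. The 3 comparisons share the DMSO arrays. Every call on 12 arrays was lost when only the 2 groups compared were fitted, which leaves fewer arrays. Within chip 1 alone, which holds DMSO replicate 1 and CDDO-Im replicate 2, the CDDO-Im calls were lost as well. CDDO-Me and DMF had 1 array each on that chip.

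**Figure D1:**
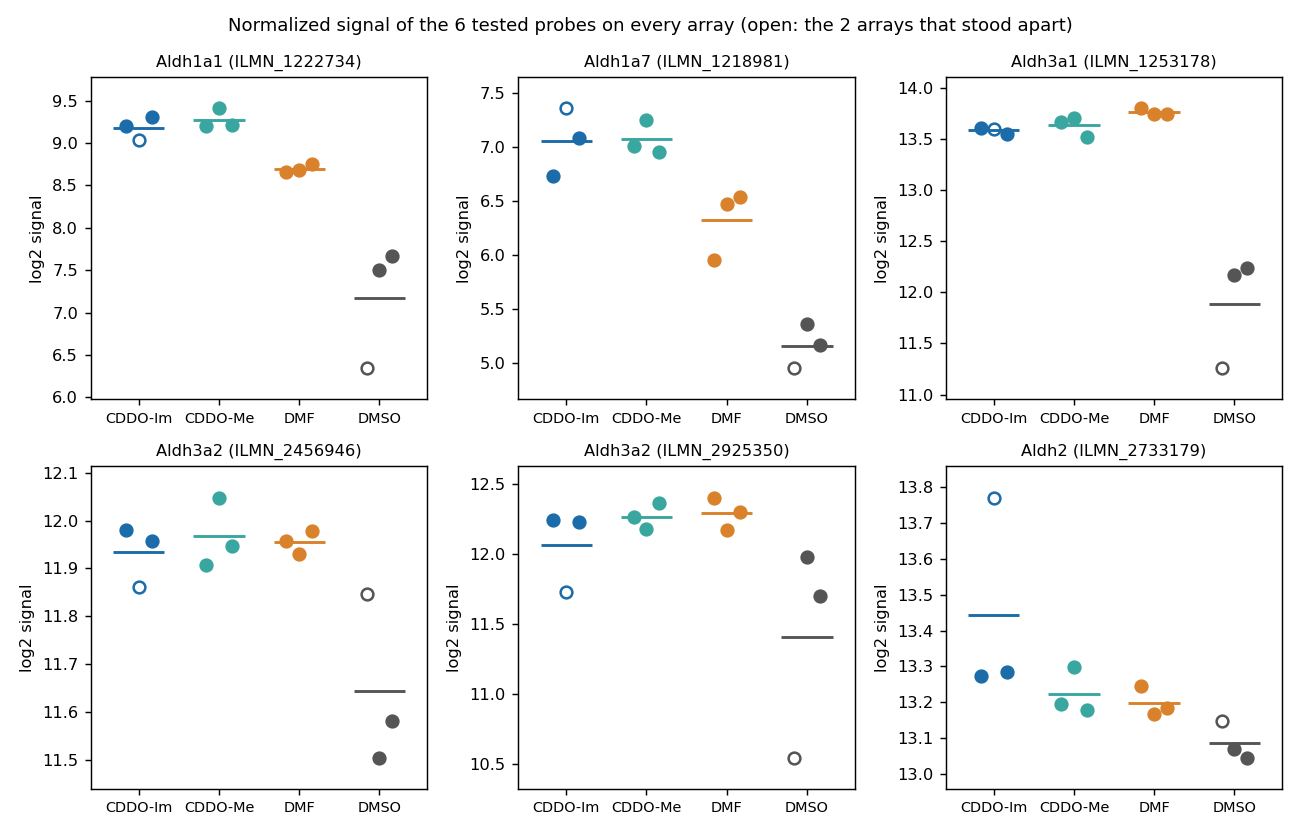
Normalized log2 signal of the 6 tested member probes on every array, by group from CDDO-Im, CDDO-Me and DMF to DMSO, with a point per array, a bar at the group mean and open points for DMSO replicate 1 and CDDO-Im replicate 2. Each panel has its own axis; the DMSO points lie lowest in every panel except that of Aldh3a2 probe ILMN_2925350, where CDDO-Im replicate 2 (11.73) lies below DMSO replicate 2 (11.98).

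Aldh1a1 encodes a cytosolic enzyme that converts retinaldehyde to retinoic acid. Aldh1a7, its rodent paralog, lies next to it on chromosome 19 with 0 annotated genes between them. Mouse work has described the Aldh1a7 enzyme as close to Aldh1a1 in sequence but poor at oxidizing retinaldehyde. The 250 bases before the transcription start of both genes, from RefSeq on GRCm38.p6, are shown because the genes are paralogs whose signals differed from DMSO in the same direction. The Aldh1a1 stretch is that of the downstream of its 2 listed starts, chr19:20601718-20601967 on the plus strand, and that of Aldh1a7 is chr19:20727557-20727806 on the minus strand. Capitals mark a run of 65 bases that is identical in both.
Aldh1a1: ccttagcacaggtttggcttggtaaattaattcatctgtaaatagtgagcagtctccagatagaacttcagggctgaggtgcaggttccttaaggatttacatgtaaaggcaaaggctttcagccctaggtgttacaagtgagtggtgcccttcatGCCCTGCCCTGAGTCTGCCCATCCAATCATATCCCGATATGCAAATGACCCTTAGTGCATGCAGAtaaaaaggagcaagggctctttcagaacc
Aldh1a7: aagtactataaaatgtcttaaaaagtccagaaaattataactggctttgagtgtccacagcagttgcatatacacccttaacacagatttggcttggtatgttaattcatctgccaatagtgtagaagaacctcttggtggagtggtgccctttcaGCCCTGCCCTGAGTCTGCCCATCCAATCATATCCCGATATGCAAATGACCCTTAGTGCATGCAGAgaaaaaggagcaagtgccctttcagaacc
The run ends 29 bases before the start in both genes, and 176 bases were identical when the windows of 250 were aligned. The motif TGACNNNGC, the core of the antioxidant response element that NRF2 binds, was searched on both strands. It was in neither sequence, nor in the window of the upstream Aldh1a1 start, while 10.2% of 32851 RefSeq promoter windows of the same length held it.

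Aldh1a1 (probe ILMN_1222734) was higher on every treated array than on any DMSO array. Its log2 signals on replicates 1 to 3 were 9.20, 9.03 and 9.30 with CDDO-Im, 9.19, 9.41 and 9.21 with CDDO-Me, 8.65, 8.68 and 8.75 with DMF, and 6.34, 7.50 and 7.67 with DMSO. The CDDO-Im and CDDO-Me arrays shared 1 range, the DMF arrays lay below it, and DMSO replicate 1 lay furthest down. The group means were 9.18 ± 0.14 with CDDO-Im, 9.27 ± 0.12 with CDDO-Me, 8.69 ± 0.05 with DMF and 7.17 ± 0.72 with DMSO (SD, n = 3 each).

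With chip taken into account, Aldh1a1 rose 4.02-fold with CDDO-Im (log2 difference 2.01 ± 0.28 SE, limma adjusted p = 0.00636). It also rose 4.02-fold with CDDO-Me (2.01 ± 0.29, limma adjusted p = 0.00941). DMF gave 2.69-fold, a log2 difference of 1.43 ± 0.29 that did not pass the test (limma adjusted p = 0.121). On the 10 arrays Aldh1a1 rose with all 3, by 3.17-fold with CDDO-Im (1.67 ± 0.09, limma adjusted p = 1.74e-05), 3.17-fold with CDDO-Me (1.67 ± 0.08, limma adjusted p = 9.92e-06) and 2.13-fold with DMF (1.09 ± 0.08, limma adjusted p = 0.000197). DMSO replicate 1 deviated by -1.24 from the mean of the other DMSO arrays, where the quartiles of all tested probes were -0.63 and 0.60. Without it alone the DMF difference was 1.09 (limma adjusted p = 0.00384). The call with CDDO-Me was lost without CDDO-Me replicate 1 (1.91, limma adjusted p = 0.131) and without CDDO-Me replicate 2 (1.98, limma adjusted p = 0.0522). Median scaling in place of quantile normalization ended both calls, at 1.86 with CDDO-Im (limma adjusted p = 0.0998) and 2.21 with CDDO-Me (limma adjusted p = 0.0516). In the authors' matrix the Aldh1a1 differences were smaller, at 1.15 with CDDO-Im, 1.17 with CDDO-Me and 0.75 with DMF, and all were called (limma adjusted p = 0.000938, 0.00109 and 0.0282). Within chip 1 the Aldh1a1 differences were 2.20 with CDDO-Im, 2.27 with CDDO-Me and 1.73 with DMF, and within chip 2 they were 1.63 with CDDO-Im, 1.64 with CDDO-Me and 1.04 with DMF.

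Aldh1a7 (probe ILMN_1218981) was a dim probe, and 2 of the 3 DMSO arrays did not detect it. Its log2 signals were 6.73, 7.36 and 7.09 with CDDO-Im, 7.01, 7.25 and 6.95 with CDDO-Me, 5.96, 6.47 and 6.54 with DMF, and 4.95, 5.36 and 5.16 with DMSO. All 9 treated arrays detected it and lay above all DMSO arrays, the DMF arrays again below those of both triterpenoids. Before any correction its signals were 118.1 to 242.6 on treated arrays, against 81.5 to 89.2 with DMSO.

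Aldh1a7 rose with CDDO-Im (log2 difference 1.902 ± 0.21 SE, limma adjusted p = 0.002) and CDDO-Me (1.86 ± 0.22, limma adjusted p = 0.00305). The difference with DMF, 1.11 ± 0.22, did not pass the test (limma adjusted p = 0.121). No fold is given, because the DMSO level was above background on 1 of 3 arrays and the size of each difference depended on how background was treated. Without background correction the differences were 1.11 with CDDO-Im, 1.08 with CDDO-Me and 0.59 with DMF, and in the authors' matrix they were 0.49, 0.47 and 0.23. With 10 arrays Aldh1a7 rose with each compound, by 1.65 with CDDO-Im (limma adjusted p = 0.000864), 1.77 with CDDO-Me (limma adjusted p = 0.000309) and 1.02 with DMF (limma adjusted p = 0.00997). Leaving out CDDO-Im replicate 2 alone gave 1.08 with DMF (limma adjusted p = 0.0373), and leaving out CDDO-Me replicate 1 gave 1.81 with CDDO-Me (limma adjusted p = 0.0569). With CDDO-Im the difference was 1.89 within chip 1 and 1.93 within chip 2, with CDDO-Me 1.86 and 1.94, and with DMF 0.80 and 1.34.

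The signals of Aldh1a1 and Aldh1a7 had a Pearson correlation of 0.928 over the 12 arrays and 0.968 over the 10, a description of arrays that share the same groups. Whether the probe of either gene also binds the transcript of its paralog was not tested, since no probe sequence was used here.

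Aldh3a1 encodes a cytosolic enzyme, abundant in the cornea, that oxidizes medium-chain and aromatic aldehydes and products of lipid peroxidation. It was bright on every array and rose with all 3 compounds. Its log2 signals (probe ILMN_1253178) were 13.61, 13.60 and 13.55 with CDDO-Im, 13.67, 13.71 and 13.53 with CDDO-Me, 13.80, 13.74 and 13.75 with DMF, and 11.26, 12.17 and 12.24 with DMSO. The 9 treated arrays lay within a narrow range far above all DMSO arrays, of which DMSO replicate 1 was the lowest. The means were 13.59 ± 0.03 with CDDO-Im, 13.64 ± 0.10 with CDDO-Me, 13.76 ± 0.03 with DMF and 11.89 ± 0.55 with DMSO (SD, n = 3 each).

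Aldh3a1 rose 3.24-fold with CDDO-Im (log2 difference 1.70 ± 0.24 SE, limma adjusted p = 0.00677), 3.29-fold with CDDO-Me (1.72 ± 0.24, limma adjusted p = 0.00936) and 3.59-fold with DMF (1.85 ± 0.24, limma adjusted p = 0.0108). It rose over 10 arrays 2.59-fold with CDDO-Im (limma adjusted p = 4.29e-05), 2.71-fold with CDDO-Me (limma adjusted p = 1.66e-05) and 2.96-fold with DMF (limma adjusted p = 2.01e-05). DMSO replicate 1 deviated from the other DMSO arrays by -0.95. The call with CDDO-Me was lost without CDDO-Me replicate 1 (1.64, limma adjusted p = 0.131) and replicate 2 (1.70, limma adjusted p = 0.0522). The call with DMF was lost when DMF replicate 1 (1.76, limma adjusted p = 0.179), replicate 2 (1.87, limma adjusted p = 0.059) or replicate 3 (1.87, limma adjusted p = 0.0566) was left out. With median scaling Aldh3a1 was no longer called with CDDO-Im (1.85, limma adjusted p = 0.0512) or DMF (2.04, limma adjusted p = 0.0735). Within chip 1 the differences were 1.89 with CDDO-Im, 1.96 with CDDO-Me and 2.09 with DMF, and within chip 2 they were 1.31 with CDDO-Im, 1.38 with CDDO-Me and 1.50 with DMF.

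The order of the compounds differed between these members after quantile normalization. For Aldh3a1 all 3 DMF arrays (lowest 13.74) lay above all 6 triterpenoid arrays (highest 13.71). For Aldh1a1 the highest DMF array, at 8.75, lay below the lowest triterpenoid array, at 9.03, and for Aldh1a7 the highest DMF array was 6.54 and the lowest triterpenoid array 6.73. The DMF arrays lay on the same sides without background correction, with an offset of 50, with cyclic loess and in the authors' matrix. Under median scaling the DMF and triterpenoid arrays overlapped for all 3 genes. In Aldh3a1 signals before any normalization, DMF replicate 3, at 13919, lay below CDDO-Me replicate 2, at 15908.1. The mean signal of all probes before normalization was 597.66 on the former array and 683.746 on the latter. The doses differed, at 0.05 µM, 0.1 µM and 15 µM, so these are values side by side and no test between compounds was made.

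**Figure D2:**
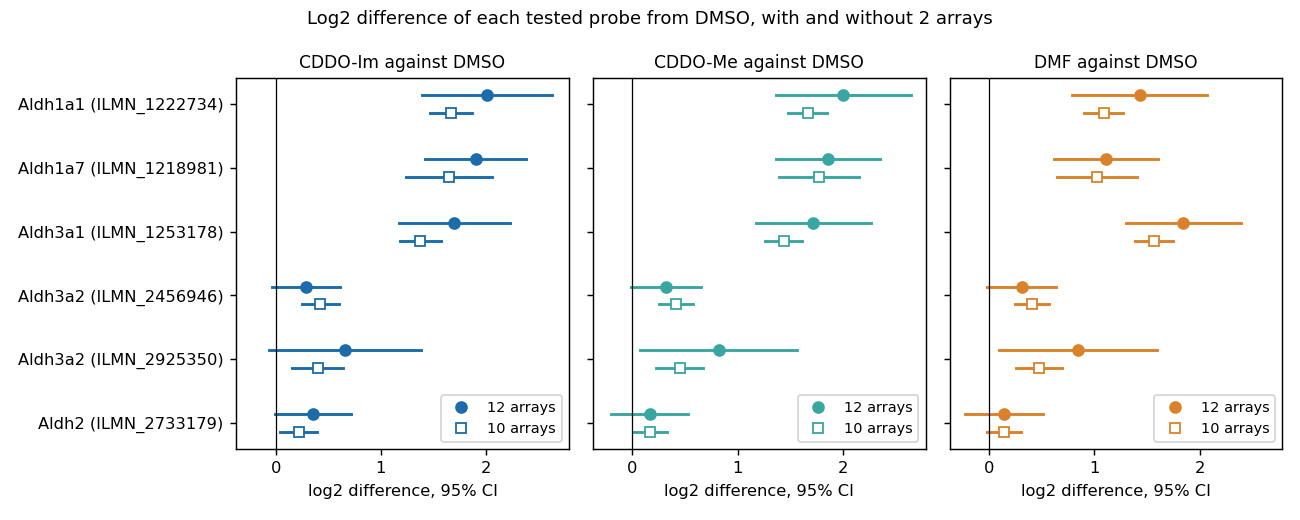
Log2 difference of each tested member probe from DMSO, with its 95% confidence interval, in a panel each for CDDO-Im, CDDO-Me and DMF, from 12 arrays (filled circles) and from 10 (open squares). Aldh1a1, Aldh1a7 and Aldh3a1 lie between 1.02 and 2.01, and the Aldh3a2 and Aldh2 probes between 0.14 and 0.84.

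Aldh3a2 encodes the fatty aldehyde dehydrogenase of the endoplasmic reticulum and lies next to Aldh3a1 on chromosome 11, with 0 annotated genes between them. It had 4 probes, of which 2 were tested. Probe ILMN_2456946 had log2 signals of 11.98, 11.86 and 11.96 with CDDO-Im, 11.91, 12.05 and 11.95 with CDDO-Me, 11.96, 11.93 and 11.98 with DMF, and 11.85, 11.50 and 11.58 with DMSO. Every treated array lay above every DMSO array, though CDDO-Im replicate 2, at 11.86, barely exceeded DMSO replicate 1, at 11.85. Probe ILMN_2925350 had 12.24, 11.73 and 12.23 with CDDO-Im, 12.27, 12.18 and 12.36 with CDDO-Me, 12.40, 12.17 and 12.30 with DMF, and 10.54, 11.98 and 11.70 with DMSO. Here the CDDO-Im and DMSO arrays overlapped, and DMSO replicate 1 lay far below every other array.

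Neither Aldh3a2 probe passed the test on 12 arrays. The first differed in log2 (± SE) by 0.29 ± 0.14 with CDDO-Im (limma adjusted p = 0.41), 0.32 ± 0.15 with CDDO-Me (limma adjusted p = 0.723) and 0.31 ± 0.15 with DMF (limma adjusted p = 0.68). The second differed by 0.66 ± 0.32 with CDDO-Im (limma adjusted p = 0.407), 0.82 ± 0.33 with CDDO-Me (limma adjusted p = 0.632) and 0.84 ± 0.33 with DMF (limma adjusted p = 0.68). Both probes were nearer each other in size on 10 arrays. The first rose there by 0.43 with CDDO-Im (limma adjusted p = 0.0114), 0.42 with CDDO-Me (limma adjusted p = 0.00795) and 0.41 with DMF (limma adjusted p = 0.0141). The second rose by 0.45 with CDDO-Me (limma adjusted p = 0.0242) and 0.47 with DMF (limma adjusted p = 0.0266), and its difference of 0.40 with CDDO-Im did not pass (limma adjusted p = 0.0545). DMSO replicate 1 deviated from the other DMSO arrays by 0.30 on the first probe and by -1.29 on the second. Without DMSO replicate 1 alone the second differed by 0.22 with CDDO-Im, 0.44 with CDDO-Me and 0.46 with DMF. Their correlation was 0.347 over 12 arrays and 0.806 over 10. The other Aldh3a2 probes, ILMN_1258695 and ILMN_2584281, were detected on 2 and 0 arrays, with uncorrected signals of 70.1 to 98.6 and 59.4 to 81.3. Fitted without the detection filter, ILMN_1258695 differed by 0.22 with CDDO-Im, 0.47 with CDDO-Me (limma adjusted p = 0.175) and 0.11 with DMF. ILMN_2584281 differed there by 0.05 with CDDO-Im, 0.02 with CDDO-Me and -0.06 with DMF, and neither probe was called.

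**Figure D3:**
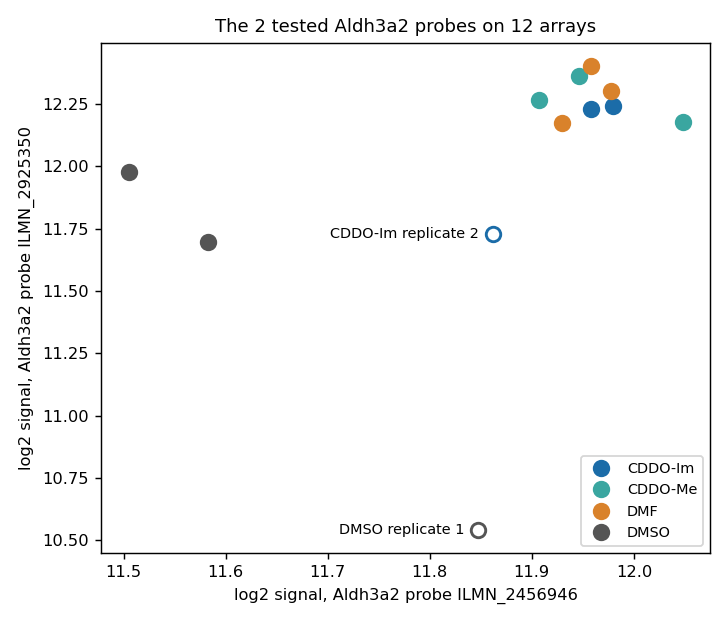
Normalized log2 signal of Aldh3a2 probe ILMN_2456946 (horizontal) and probe ILMN_2925350 (vertical) on the 12 arrays, coloured by group, with open points for DMSO replicate 1 and CDDO-Im replicate 2. DMSO replicate 1 sits apart at 11.85 and 10.54, and the other DMSO arrays lie at the low end of the first probe.

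Aldh2 encodes the mitochondrial enzyme that oxidizes acetaldehyde. Its log2 signals (probe ILMN_2733179) were 13.27, 13.77 and 13.29 with CDDO-Im, 13.19, 13.30 and 13.18 with CDDO-Me, 13.25, 13.17 and 13.18 with DMF, and 13.15, 13.07 and 13.05 with DMSO. The treated arrays lay above all DMSO arrays, by little except for CDDO-Im replicate 2. No difference passed the test, at 0.35 ± 0.16 log2 (SE) with CDDO-Im (limma adjusted p = 0.389), 0.16 ± 0.17 with CDDO-Me (limma adjusted p = 0.759) and 0.14 ± 0.17 with DMF (limma adjusted p = 0.756). The same was true on 10 arrays, at 0.22 with CDDO-Im (limma adjusted p = 0.126), 0.17 with CDDO-Me (limma adjusted p = 0.2) and 0.14 with DMF (limma adjusted p = 0.266). The 95% intervals there were 0.05 to 0.40 with CDDO-Im, 0.006 to 0.33 with CDDO-Me and -0.02 to 0.30 with DMF. Without CDDO-Im replicate 2 alone the CDDO-Im difference was 0.19.

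Aldh7a1, which acts in lysine breakdown, and Aldh9a1, which oxidizes aminobutyraldehydes, were left out of the test by the detection filter. Aldh7a1 (probe ILMN_2590532) was detected on 1 array, with uncorrected signals of 71.4 to 102.3, and Aldh9a1 (probe ILMN_2599181) was detected on 0 arrays, at 55.3 to 81.4. When every probe was fitted without the filter, their log2 differences lay between -0.09 and 0.02, and none was called (limma adjusted p = 0.899 to 0.999). No difference was detectable for these genes at this signal over background. Aldh9a1 was the only gene whose RefSeq window held TGACNNNGC among the 4 members with a listed promoter, which were Aldh1a1, Aldh1a7, Aldh3a2 and Aldh9a1. The window is chr1:167349741-167349990 on the plus strand of GRCm38.p6, and the match, in capitals, begins 87 bases before the start.
Aldh9a1: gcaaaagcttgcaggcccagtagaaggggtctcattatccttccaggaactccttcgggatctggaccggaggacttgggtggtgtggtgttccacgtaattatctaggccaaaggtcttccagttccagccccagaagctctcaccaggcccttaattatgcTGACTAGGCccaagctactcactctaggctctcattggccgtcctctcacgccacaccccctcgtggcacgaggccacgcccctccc
The Aldh3a2 window had no match. A match or its absence in 250 bases describes these letters only.

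The other aldehyde dehydrogenases of the array did not pass the test on 12 arrays. Of 14 such genes 10 were tested, and limma called 0 with each compound, while 1 had an unadjusted p under 0.05 with CDDO-Im, 0 with CDDO-Me and 1 with DMF. By the brightest probe of each gene, their median log2 differences were 0.36 with CDDO-Im, 0.17 with CDDO-Me and 0.16 with DMF on 12 arrays, and 0.06 with CDDO-Im, 0.06 with CDDO-Me and 0.02 with DMF on 10. Among the brightest probe of each gene, the smallest p belonged to Aldh5a1, the succinate semialdehyde dehydrogenase, with CDDO-Im (0.86 ± 0.37 SE, limma adjusted p = 0.385). With the other compounds it belonged to Aldh1l2, a mitochondrial enzyme of folate metabolism, at 0.48 ± 0.22 with CDDO-Me (limma adjusted p = 0.721) and 0.50 ± 0.22 with DMF (limma adjusted p = 0.68). By that probe 0 of these genes were called by limma on 10 arrays, with 1 unadjusted p under 0.05 per comparison. The probes of Aldh1a3, another retinaldehyde dehydrogenase, disagreed, as seen after its values were known. Its brighter probe differed on 12 arrays by 0.03 with CDDO-Im, -0.00097 with CDDO-Me and -0.16 with DMF. Its probe ILMN_2761436, which the counts and medians leave out, differed by 1.45 ± 0.60 with CDDO-Im (limma adjusted p = 0.374), 1.37 ± 0.62 with CDDO-Me (limma adjusted p = 0.721) and 1.03 ± 0.62 with DMF (limma adjusted p = 0.68). The brighter probe differed by 0.12 with CDDO-Im and -0.01 with CDDO-Me on 10 arrays, where the other rose by 0.55 with CDDO-Im (limma adjusted p = 0.0292) and 0.54 with CDDO-Me (limma adjusted p = 0.0204) and differed by 0.21 with DMF (limma adjusted p = 0.307).

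**Figure D4:**
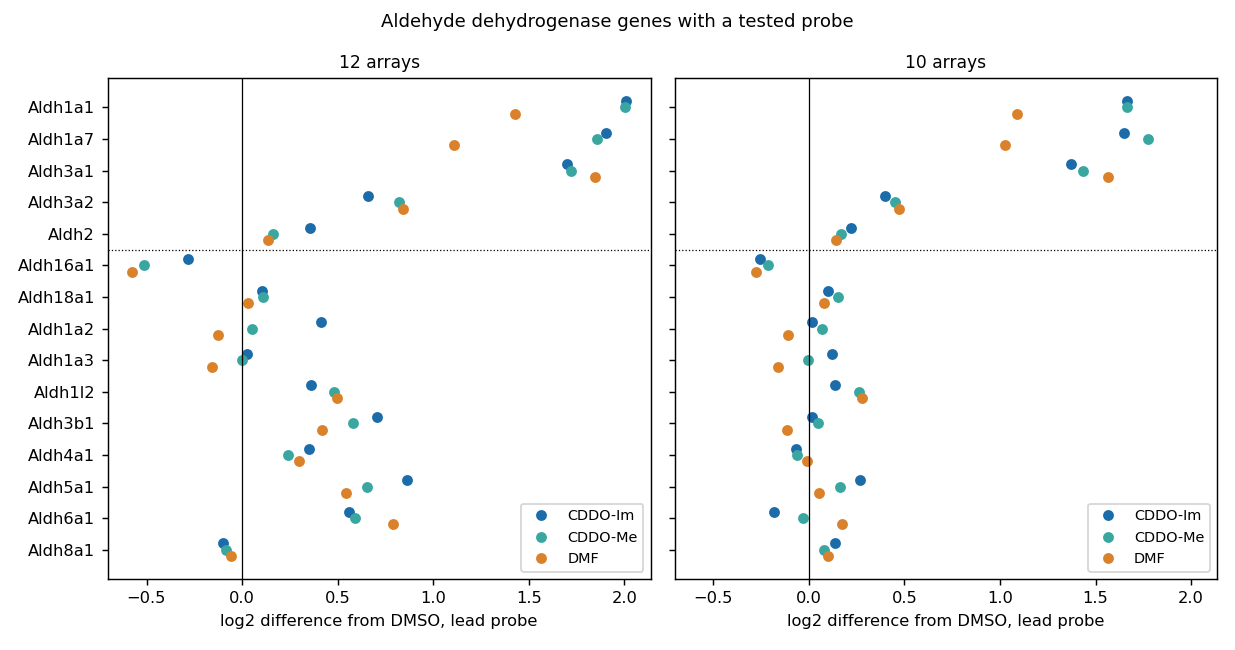
Log2 difference from DMSO of the brightest tested probe of each aldehyde dehydrogenase gene with CDDO-Im, CDDO-Me and DMF, from 12 arrays (left) and 10 arrays (right), with the 5 tested member genes above the dotted line. On 10 arrays the 10 other genes lie near 0, with medians of 0.06, 0.06 and 0.02, and Aldh1a1, Aldh1a7 and Aldh3a1 lie at 1.02 or more.

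Among 16 other enzymes that reduce or oxidize aldehydes, 9 were tested. Akr1b8, an aldo-keto reductase, rose with CDDO-Im (0.93 ± 0.17 log2 SE, limma adjusted p = 0.0288) and CDDO-Me (1.12 ± 0.18, limma adjusted p = 0.0143). It was the only gene of that list called, and with DMF, where 0 were called and 2 had an unadjusted p under 0.05, it differed by 0.99 ± 0.18 (limma adjusted p = 0.0707). By the brightest probe of each gene, Akr1b8 and Esd, which hydrolyses the glutathione adduct of formic acid, rose with each compound on 10 arrays (limma). Esd had other tested probes, whose differences are not given here. Akr1b8 differed there by 0.99 with CDDO-Im, 1.06 with CDDO-Me and 0.92 with DMF, and Esd by 0.59 with CDDO-Im, 0.61 with CDDO-Me and 0.64 with DMF. On 12 arrays Esd differed by 0.69 with CDDO-Im (limma adjusted p = 0.162), 0.77 with CDDO-Me (limma adjusted p = 0.166) and 0.80 with DMF (limma adjusted p = 0.243).

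The genes of retinoid metabolism and of the response to retinoic acid, which Aldh1a1 can make, gave no call on 12 arrays. Of 15 genes 8 were tested, limma called 0 in each comparison, and 1 had an unadjusted p under 0.05 with CDDO-Im, 2 with CDDO-Me and 1 with DMF. The smallest p belonged to the retinoic acid receptor gene Rara with CDDO-Im (-1.04 log2, limma adjusted p = 0.295). It belonged to Cyp26b1, which breaks down retinoic acid, with CDDO-Me (-1.39, limma adjusted p = 0.355) and DMF (-0.996, limma adjusted p = 0.68). On the 10 arrays Rdh10, which makes retinaldehyde from retinol, fell by 0.81 with CDDO-Im (limma adjusted p = 0.00634), by 0.93 with CDDO-Me (limma adjusted p = 0.00186) and by 0.52 with DMF (limma adjusted p = 0.0363). With 12 arrays Rdh10 differed by -0.50 with CDDO-Im (limma adjusted p = 0.573), -0.45 with CDDO-Me (limma adjusted p = 0.755) and -0.04 with DMF (limma adjusted p = 0.977). The Rdh10 probe was dim, detected on 10 of the 12 arrays with uncorrected signals of 89.2 to 192.6. The brightest probe of the receptor gene Rarg rose by 0.43 with DMF on 10 arrays (limma adjusted p = 0.018), against 0.09 on 12 (limma adjusted p = 0.918). Its other tested probe is not given here.

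The genes with the array pattern most like each of the 3 strongly changed members were picked from 10386 genes by Pearson correlation over the 12 arrays, which share their groups and the low DMSO replicate 1. For Aldh1a1 these were Mfsd6 (r = 0.993), the kinase genes Cilk1 (0.992) and Mapk9 (0.988), and Mb21d2 (0.985), and over 10 arrays their values were 0.985, 0.989, 0.973 and 0.965. For Aldh1a7 they were the phospholipid transporter gene Abcb4 (0.973), the transcription factor gene Eomes (0.972), the splicing regulator gene Esrp2 (0.971) and the receptor kinase gene Mst1r (0.968). For Aldh3a1 they were the glutathione transferase genes Gsta1 (0.989) and Gsta2 (0.985), the mitochondrial folate enzyme gene Mthfd2 (0.98) and the carbonyl reductase gene Cbr3 (0.979). Gsta1 differed from DMSO by 2.83 with CDDO-Im, 2.81 with CDDO-Me and 2.65 with DMF on the log2 scale. Abcb4, most like Aldh1a7, differed by 3.61 with CDDO-Im, 3.25 with CDDO-Me and 2.13 with DMF.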

How the data were processed

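The intensity values were mean bead signals per probe that the authors exported with GenomeStudio's Gene Expression module 1.9.0 with no normalization and no background subtraction, per the file headers. The detection p-values were deposited beside them, per array. An intensity matrix that the authors normalized in a way not given in the sources used here (column medians 170.18 to 172.05) served as an alternative.

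Signals were background corrected with limma's normexp from the detection p-values (offset 16), quantile normalized over 12 arrays and converted to log2. Probes detected (p under 0.05) on at least 3 arrays were tested in limma 3.58.1 (R 4.3.3), with group and chip as terms and 7 residual degrees of freedom. Tests were two-sided, with Benjamini-Hochberg adjustment over all 19211 probes, and the code was tested on simulated data. Current symbols came from Entrez numbers (29586 probes) or accessions (2759), and 12936 probes kept their names.

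The members and gene lists were chosen with earlier results of these data known. Every member probe is named. Of other lists, genes are represented by their brightest tested probe, and up to 4 called genes, or the one with the smallest p, are named per comparison, with the 4 genes most alike for 3 members. Alternatives covered background, normalization, filter, chip, replicate block and arrays left out.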

Additional observations from a re-analysis of the deposited data

How the results depend on the processing

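No difference of a tested member probe changed direction under any of the alternatives run. Of the 6 tested member probes, 3 were called with CDDO-Im, 3 with CDDO-Me and 1 with DMF (the order used below). These include Aldh1a7, which passed the detection filter only through treated arrays. Over all 19211 probes the calls were 278, 206 and 57. The member counts were the same without background correction (305, 228 and 62 over all probes) and with an offset of 50 (304, 230 and 62). They were the same with cyclic loess (318, 252 and 70) and without the chip term (331, 265 and 82). Detection on 6 arrays left them unchanged (279, 208 and 58 of 17833). So did no detection filter (10 member probes, and 310, 217 and 67 of 45281) and 1 probe per gene (5 member probes, and 241, 189 and 46 of 13280). With 10 arrays the member counts were 4, 5 and 5. With gene-by-gene array weights, chosen after seeing the data, they were 6, 5 and 5. Those weights also raised the calls over all 19211 probes, to 5291 with CDDO-Im and 4660 with CDDO-Me, from 278 and 206 unweighted. Default array weights did not converge and are not reported. Median scaling gave 1, 2 and 0 (117, 129 and 44 over all probes), and moved the median of all probes by -0.04, 0.21 and 0.12. Fitting only the 2 groups compared, which leaves fewer samples, gave 0 for each, with 3, 3 and 3 probes at an unadjusted p under 0.05. Over all probes that fit called 0 with CDDO-Im and 29 with CDDO-Me. Chip 1 alone, which holds both arrays that stood apart, gave 0 with CDDO-Im, with 3 probes at an unadjusted p under 0.05. Over all probes it also gave 0 in that comparison. CDDO-Me and DMF had 1 array each on that chip. The authors' matrix gave 3, 3 and 2 (335, 243 and 92 over all probes). Its differences were smaller for Aldh1a1 (1.15, 1.17 and 0.75) and Aldh1a7 (0.49, 0.47 and 0.23). A replicate block in place of the chip term gave 3, 3 and 2 (277, 211 and 69 over all probes). Together with that term it gave 3, 3 and 0 (268, 137 and 44 over all probes), with 4 member probes at an unadjusted p under 0.05 for DMF. Whether the replicate numbers pair the samples is not settled. Correlations of deviations were -0.203 to 0.342 between arrays of the same number, over 0.1 in 10 of 18 pairs, and -0.323 to 0.323 between others. Of the 12 arrays, 8 correlated best with their own number. Leaving out 1 array gave 3 to 3 with CDDO-Im (116 to 442 over all probes), 0 to 3 with CDDO-Me and 0 to 2 with DMF. The CDDO-Me count was 0 without CDDO-Me replicate 1 and 1 without replicate 2 (53 and 81 over all probes). For DMF it was 0 without DMF replicate 1, 2 or 3 (22, 35 and 36 over all probes). The DMF count was 2 without DMSO replicate 1 or CDDO-Im replicate 2 (128 and 142 over all probes). Calls over all probes moved further, from 278, 206 and 57 on 12 arrays to 1737, 1800 and 1277 on 10. Without DMSO replicate 1, Aldh3a2 probe ILMN_2925350 differed by 0.22, 0.44 and 0.46, and without CDDO-Im replicate 2, Aldh2 differed by 0.19 with CDDO-Im. Signal over background limits Aldh1a7, Aldh7a1 and Aldh9a1.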
